A study of Mus musculus with 8 samples.

Results

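The matrix metalloproteinases (Mmp genes), the ADAMTS proteases (Adamts genes) and the tissue inhibitors of metalloproteinases (Timp genes) were examined in muscle stem cells (MuSCs) of mice fed a vitamin A–free (VA-free) or a control diet. Members were every gene whose mouse symbol in the Ensembl 96 annotation consists of Mmp, Adamts or Timp and a number, with a or b after the number where there is one, which gave 46 of the 36047 genes with a quantified transcript. They comprised 23 Mmp, 19 Adamts and 4 Timp genes, and all but 1 were annotated as protein coding, the exception being Mmp1a, a polymorphic pseudogene. All mice were males of 5 to 6 months that carried Pax7 CreERT2 and the Rosa26 nTnG reporter (Pax7-nTnG), in which tamoxifen switches a nuclear red label to nuclear GFP in cells that express Pax7. The VA-free group (3 mice) received a diet without vitamin A for 8 weeks while the control group (2 mice) stayed on normal chow, and both groups were given tamoxifen. Nuclear GFP+ cells were sorted from gastrocnemius and quadriceps muscles, and RNA of a mouse was split into technical replicates A and B, and 8 libraries were analysed. On the VA-free diet these were 1B of the first mouse, 2A of the second and 3A with 3B of the third. The control diet had both libraries of either mouse (1A with 1B, 2A with 2B). The label depends on Cre driven by the Pax7 gene, which limits the sorted population to cells that expressed Pax7 when tamoxifen was given and to whatever else passed the gate.

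MMPs and ADAMTS enzymes are zinc-dependent proteases that are secreted or held at the cell surface and cut collagens, proteoglycans and other matrix and cell surface proteins. They are made as inactive precursors, several are switched on by furin-like convertases or by other MMPs, and TIMPs bind the active enzymes and block them. In muscle, MuSCs lie between the myofiber and its basement membrane, and these proteases are known for remodelling that niche when the cells leave quiescence, migrate and fuse. Retinoids are known to repress the collagenase and stromelysin genes in cultured fibroblasts, which makes the family a natural one to look at when dietary vitamin A is withdrawn.

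The libraries held between 44831232 and 88650428 estimated counts, and levels are given as CPM (counts scaled to library size after TMM normalization) unless TPM, which also divides by transcript length, is named. All 11 MuSC markers, Pax7 among them, were past the threshold and higher on the VA-free diet, with a summed level of 6534 to 7381 CPM against 1838 to 4214 CPM in control libraries. Markers of several other cell types were lower, though not those of every type. Of 8 endothelial markers 8 were lower (95.6 to 153 CPM summed against 792 to 2076), of 7 Schwann cell markers 7 were lower (496 to 520 against 1084 to 1392), of 7 tenocyte markers 5 (946 to 1392 against 1653 to 1921), and of 8 myofiber markers 5 (236 to 294 against 381 to 450 CPM). Of 8 pericyte and smooth muscle markers 5 were lower and 1 higher (1533 to 1813 against 2528 to 3026 CPM), and of 8 macrophage markers 3 were lower (26.7 to 149 against 186 to 908). Of 8 markers of fibro-adipogenic progenitors 4 were lower, although their sum, most of it Gsn, was alike on both diets (6902 to 8033 against 6781 to 8081 CPM), and none of the 3 neutrophil markers tested passed (1.75 to 2.91 against 1.59 to 7.86 CPM for all 8). Of 12 immediate early and dissociation genes 2 were higher and 3 lower, with sums of 30421 to 33222 CPM against 24368 to 35930. Sums weigh the genes of highest level most. The median log2 fold change was -4.84 for the tenocyte, -3.89 for the Schwann cell and -3.60 for the endothelial markers tested. It was -2.58 for pericyte and smooth muscle, -1.83 for neutrophil, -1.64 for macrophage and -1.46 for fibro-adipogenic markers. Myofiber markers had a median of -1.17 and MuSC markers one of 1.21. No marker of these lists was at 0 counts in all 8 libraries. The part of other cell types in the differences that follow was not tested, and in sorted bulk RNA fewer cells of a type and less RNA per cell cannot be told apart. Library control 2A stood apart from the rest, including from control 2B of the same mouse. Of 30 members at or over 1 CPM, 14 differed more than 2-fold between control 2A and 2B, 13 of them lower in 2A, beside 31.2% of all genes at that level. Between the libraries of control mouse 1, 2 members differed as much (8.08% of all genes), and between those of VA-free mouse 3 also 2 (2.17%).

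Of the 46 members 36 passed the filter on low counts and were tested, of which 10 had more and 9 had less RNA without dietary vitamin A at an adjusted p under 0.05 (quasi-likelihood test of edgeR, p-values adjusted by Benjamini-Hochberg over 17997 genes, hereafter edgeR adjusted p). The background was high, since 41.4% of all genes tested passed, 18.9% higher and 22.5% lower, so that the number of members that passed is not in itself a property of the family. The families differed in direction. Of 17 ADAMTS genes tested 8 were higher and 1 lower, with a median log2 fold change of 0.91. Of 15 MMP genes tested 1 was higher and 6 were lower, with a median of -0.38. Of the 4 TIMP genes 1 was higher and 2 were lower. The median over the 36 members was 0.114, beside 0.00296 for all genes tested. For 22 of 36 members the mice fell into separate ranges by diet (63.3% of all genes tested), and for 17 the libraries did (41.3%). Leaving out control 2A, the library that stands apart, left 9 members higher and 9 lower (39.6% of all genes). Leaving out control 2B, after which control mouse 2 rests on the deviating library alone, left 4 members higher and 5 lower (25.2% of all genes), and leaving out VA-free mouse 3 left 9 higher and 5 lower (32.1%). With 1 library per mouse, the first of each, 5 members were higher and 6 lower (30.7%). In that setting control mouse 2 also rests on control 2A alone. With DESeq2 the counts were 11 and 10 (46.5%), with the replicate number as a block 9 and 8 (29.1%), and on protein-coding transcripts 9 and 8 of 34 (43.7%). Where a control mouse is left out, 1 control mouse remains, and it is assumed to vary like the VA-free mice. Over all omissions of a mouse or library the share of all genes past the threshold ran from 25.2% to 43.3%.

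**Figure D1:**
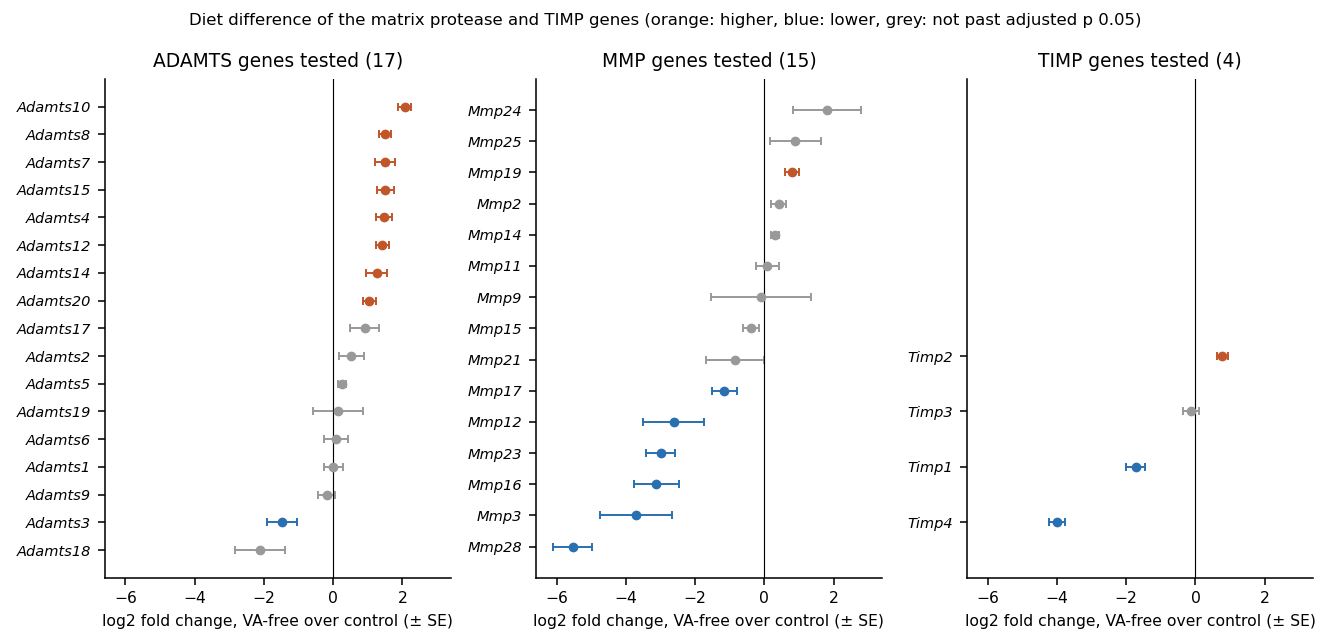
Log2 fold change of VA-free over control for the 36 members tested, by family, with bars of 1 standard error from the edgeR fit on 5 mice; orange and blue points passed an adjusted p of 0.05. The ADAMTS points past the threshold lie to the right of 0 except Adamts3, and the MMP points past it lie to the left except Mmp19.

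The families differed in length as well as in direction, with a median effective length of 4273 bases for the ADAMTS genes tested. It was 2344 bases for the MMP and 2804 bases for the TIMP genes. Members that were lower were shorter than the others. The median effective length was 2344 bases for the members that were lower, 4008 bases for those that were higher and 3961 bases for the 17 not past the threshold, beside 2057 bases for all genes tested. The Spearman correlation of log2 fold change with effective length was 0.41 over the 36 members and 0.37 over all genes tested, given as a description over genes of the same libraries. When the length trend over all genes was taken out, 7 members were higher and 12 lower (29.6% of all genes past the threshold) and the members' median was -0.35. Adamts14, Adamts20 and Timp2 then no longer passed, whereas Adamts9, Adamts18 and Mmp15 were called lower. With TPM and a pseudocount of 1, a scale that shifted all genes tested by a median of 0.192, 13 members were higher and 7 lower, beside 32.2% of all genes higher and 14.7% lower (46.9% in all). Mmp2, Mmp14 and Adamts5 were then among the higher members, with the shift of all genes included in their values.

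**Figure D2:**
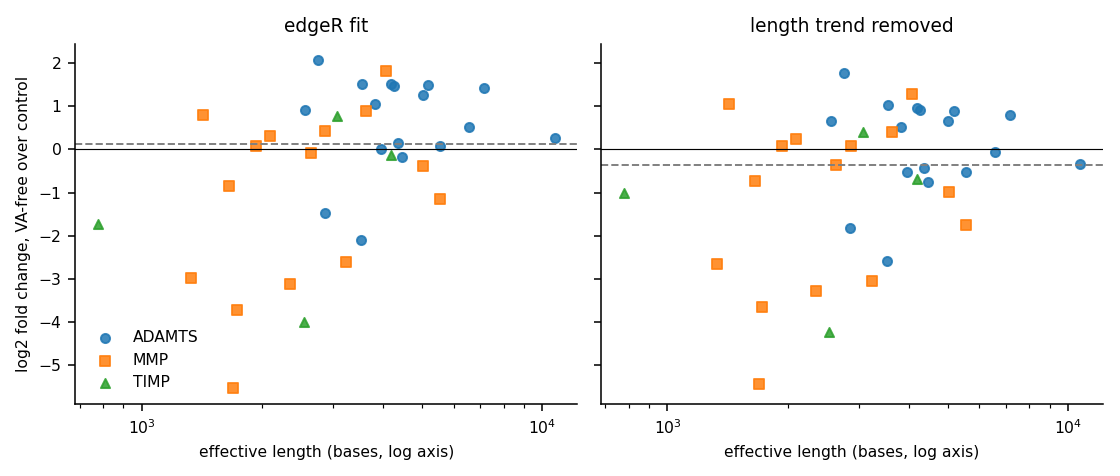
Log2 fold change of the 36 members against effective length (log axis), in the edgeR fit and after the length trend over all genes was removed; the dashed line is the members' median, 0.114 and -0.35. Long ADAMTS genes sit above 0 at the left and move down at the right, while Mmp28, Timp4 and other members far below 0 stay there.

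Per length, the order of the members depended on the diet. On the VA-free diet Adamts1 had the highest mean (887 TPM), followed by Timp2 (824 TPM), Mmp2 (322 TPM), Timp3 (267 TPM), Adamts4 (211 TPM), Mmp14 (182 TPM) and Adamts10 (144 TPM). On the control diet Adamts1 (640.0 TPM) and Timp2 (414 TPM) were followed by Timp3 (226 TPM), Mmp2 (188 TPM), Mmp14 (105 TPM), Timp4 (95.8 TPM) and Adamts4 (57.3 TPM). In control 2A Timp2 (174 TPM) was above Adamts1 (151 TPM). Over all 8 libraries the ranges of Mmp2 (124 to 387 TPM) and Timp3 (128 to 305 TPM) overlapped, as did those of Mmp14 (90.7 to 189.9 TPM) and Adamts4 (12.3 to 257 TPM). Adamts1 took 62.8% to 63.9% of the summed TPM of ADAMTS genes in VA-free libraries and 68.3% to 83.2% in control libraries. Mmp2 and Mmp14 led the MMP genes in every library.

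The hyalectanases, ADAMTS enzymes known to cut versican, aggrecan and related proteoglycans, held 4 of the 8 ADAMTS genes that were higher. Values by library are given in the order of these names, VA-free before control. Adamts4 (chromosome 1, 171250421 to 171260637, GRCm38), also called aggrecanase-1, stood at 417, 615, 434 and 478 CPM on the VA-free diet and at 185, 239, 42.8 and 246 CPM on the control diet. Every VA-free library was above every control library, although control 2A was far below the other controls, and the log2 fold change was 1.47 ± 0.24 (SE; 3 against 2 mice; edgeR adjusted p = 0.00306). Adamts8 (chromosome 9, 30942562 to 30963838) stood at 81.2, 72.8, 96.2 and 103 CPM against 27.0, 37.4, 14.3 and 40.8 CPM. The diets did not overlap and the log2 fold change was 1.51 ± 0.18 (edgeR adjusted p = 0.000915). Adamts8 shares 489 exon bases with Gm29724 on the opposite strand, from which reads of an unstranded library cannot be told apart. Adamts15 (chromosome 9, 30899155 to 30922452), the neighbour of Adamts8 on the chromosome, stood at 65.1, 68.4, 65.6 and 70.7 CPM against 24.4, 36.1, 4.18 and 29.8 CPM. Again no library overlapped, with a log2 fold change of 1.5 ± 0.24 (edgeR adjusted p = 0.00317). Adamts20, known for its role in melanoblast and palate development, stood at 103, 75.2, 90.3 and 97.8 CPM against 36.7, 39.4, 41.0 and 60.7 CPM. Its log2 fold change was 1.05 ± 0.18 (edgeR adjusted p = 0.00419), and on protein-coding transcripts alone, an analysis added after the transcript shares had been seen, it was 1.41 (edgeR adjusted p = 0.00125). Without control 2B the calls of Adamts4 (log2 fold change 1.93, edgeR adjusted p = 0.0919) and Adamts15 (1.94, edgeR adjusted p = 0.125) were lost, while those of Adamts8 and Adamts20 stayed past the threshold. Without control 2A all 4 stayed past the threshold, with smaller log2 fold changes of 1.11 for Adamts4, 1.22 for Adamts8 and 0.88 for Adamts20.

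The remaining hyalectanases did not pass. Adamts1, an early induced protease of the family, stood at 1718, 1968, 1881 and 2046 CPM on the VA-free diet and at 2299, 2627, 546 and 1986 CPM on the control diet. Control 2A lay far below every other library, the diets overlapped, and the log2 fold change was 0.00 ± 0.27 (edgeR adjusted p = 0.991). The sign for Adamts1 depended on which control mouse was kept, at -0.42 with the first alone and 0.59 with the second alone. Adamts5, aggrecanase-2 and the neighbour of Adamts1 on chromosome 16, had a log2 fold change of 0.26 ± 0.11 (edgeR adjusted p = 0.109), at 52.7 to 60.1 CPM against 44.5 to 54.8 CPM. Adamts9 had a log2 fold change of -0.18 ± 0.25 (edgeR adjusted p = 0.601), which turned to 0.45 on protein-coding transcripts and to -0.77 with the length trend removed (edgeR adjusted p = 0.0446). It shares 1381 exon bases with A730049H05Rik on the opposite strand.

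**Figure D3:**
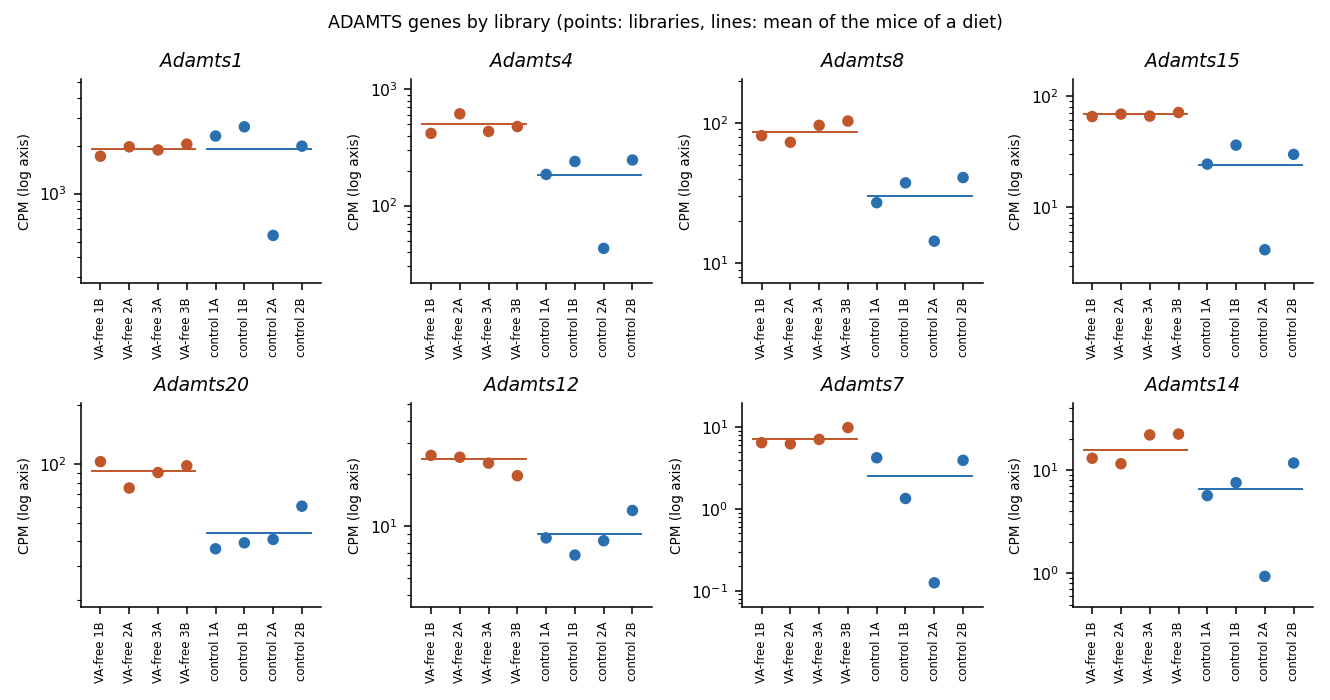
CPM (log axis) of Adamts1 and 7 ADAMTS genes that were higher on the VA-free diet, with a point per library and a line at the mean of the mice of a diet. The 4 VA-free points of Adamts4, Adamts8, Adamts15, Adamts20, Adamts12 and Adamts7 lie above all control points, those of Adamts14 and Adamts1 do not, and control 2A is the lowest library for 6 of the 8 genes.

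Adamts7 and Adamts12, a structurally similar pair known to cut cartilage oligomeric matrix protein, were both higher. Adamts12 (chromosome 15, 11064790 to 11349231) stood at 25.4, 24.8, 22.9 and 19.4 CPM against 8.53, 6.80, 8.22 and 12.3 CPM, with no overlap and a log2 fold change of 1.42 ± 0.18 (edgeR adjusted p = 0.0013). Adamts7 was lower in level, at 6.43, 6.21, 7.05 and 9.82 CPM against 4.21, 1.34, 0.125 and 3.92 CPM. Its log2 fold change was 1.51 ± 0.29 (edgeR adjusted p = 0.0063), the call was lost without control 2B (2.17, edgeR adjusted p = 0.202), and on protein-coding transcripts the log2 fold change was 2.70 (edgeR adjusted p = 0.00324). Without control 2A the log2 fold change of Adamts7 was 1.05 and stayed past the threshold.

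The 3 procollagen N-proteinases, which trim the amino-terminal propeptides of fibrillar collagens, went 3 ways. Adamts14 stood at 13.0, 11.5, 21.96 and 22.4 CPM against 5.67, 7.57, 0.936 and 11.7 CPM, so that control 2B overlapped with VA-free 2A, with a log2 fold change of 1.26 ± 0.31 (edgeR adjusted p = 0.0167). Adamts3 stood at 2.44, 1.22, 2.71 and 1.19 CPM against 6.13, 7.82, 1.41 and 5.47 CPM, where only control 2A fell among the VA-free libraries, with a log2 fold change of -1.48 ± 0.43 (edgeR adjusted p = 0.0304). Adamts2 did not pass, at 44.5 to 115 CPM against 36.1 to 63.8 CPM (log2 fold change 0.53 ± 0.36, edgeR adjusted p = 0.283). Both calls were fragile. That of Adamts14 was lost without control mouse 1 (1.30, edgeR adjusted p = 0.0522), control mouse 2 (1.21, edgeR adjusted p = 0.0658), control 2A (0.77, edgeR adjusted p = 0.125) or control 2B (2.01, edgeR adjusted p = 0.134), and that of Adamts3 without control mouse 1 (-0.86, edgeR adjusted p = 0.185), control 2B (-1.20, edgeR adjusted p = 0.258), VA-free mouse 2 (-1.25, edgeR adjusted p = 0.0747), VA-free mouse 3 (-1.51, edgeR adjusted p = 0.0786) or VA-free 3B (-1.31, edgeR adjusted p = 0.0566).

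Adamts10, which acts in fibrillin microfibril assembly, had the largest rise of the ADAMTS genes tested, but the change lay on transcripts that are not annotated as protein coding. The gene (chromosome 17, 33524204 to 33553782) stood at 214, 219, 228 and 233 CPM on the VA-free diet and at 58.3, 64.3, 17.7 and 69.5 CPM on the control diet. The diets were far apart, with a log2 fold change of 2.07 ± 0.18 (edgeR adjusted p = 0.000398). Its protein-coding transcripts alone stood at 9.003, 6.48, 6.21 and 4.53 CPM against 5.73, 20.04, 8.36 and 7.70 CPM. These values overlapped and the log2 fold change was -0.53 ± 0.32 (edgeR adjusted p = 0.227), so the direction turned. Protein-coding transcripts made up 4.55% to 6.75% of the TPM of the gene in VA-free libraries and 13.9% to 64.5% in control libraries. The leading transcript was Adamts10-203, annotated for nonsense-mediated decay, with 36.6% to 40.9% of the TPM of the gene on the VA-free diet and 6.08% to 41.1% on the control diet. Estimates for transcripts that share sequence carry an error that the files do not give.

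One of the differences between Adamts10-203 (3733 bases) and the protein-coding Adamts10-201 (4043 bases) is short. The transcripts also differ elsewhere, and not all of their differences are given here. After an upstream exon that ends at 33531797 on the plus strand of chromosome 17 (GRCm38), the next exon of Adamts10-203 starts at 33537087 and that of Adamts10-201 at 33537092, and both end at 33537175. The joined transcripts, from the GENCODE M21 transcript sequences that correspond to Ensembl 96, are shown from 15 bases before the junction, with the 5 bases that only Adamts10-203 holds in capitals.
Adamts10-203: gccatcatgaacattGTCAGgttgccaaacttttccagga
Adamts10-201: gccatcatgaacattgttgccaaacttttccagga
The stop codon of Adamts10-203 is annotated at 33537349 to 33537351, and the transcript also keeps the 90 bases between 33538174 and 33538263 that are an intron of Adamts10-201.

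**Figure D4:**
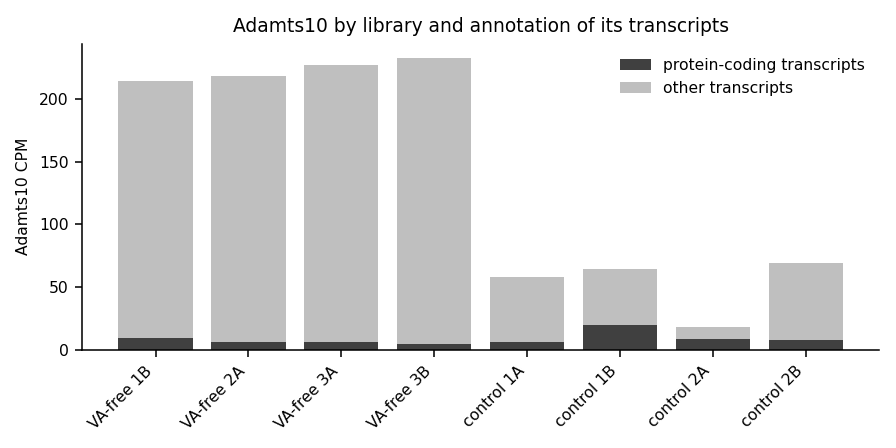
Adamts10 CPM by library, as stacked bars from 0, with protein-coding transcripts in dark grey and all other transcripts of the gene in light grey. The total is 214 to 233 CPM in VA-free and 17.7 to 69.5 CPM in control libraries, while the dark part is 4.53 to 9.003 CPM and 5.73 to 20.04 CPM.

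Of the other ADAMTS genes, Adamts17 (0.91 ± 0.41, edgeR adjusted p = 0.122), Adamts18 (-2.11 ± 0.73, edgeR adjusted p = 0.0546), Adamts19 (0.14 ± 0.71) and Adamts6 (0.08 ± 0.35), the relative of Adamts10, did not pass, at mean levels of 0.175 to 2.03 CPM over the 5 mice. Adamts18 did not overlap between the diets, at 0.101 to 0.788 CPM against 1.64 to 2.52 CPM, and was called lower by DESeq2 (adjusted p = 0.017). Adamts13, the von Willebrand factor protease, had 1 count in 1 library, and Adamts16 had at most 34 counts in a library, and neither was tested.

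The TIMP genes changed in opposite directions. Timp4 (chromosome 6, 115241892 to 115252205), the inhibitor known from heart and skeletal muscle, had the most marked difference of the 4, standing at 8.40, 9.88, 13.6 and 15.5 CPM on the VA-free diet and at 197, 176, 190.2 and 148 CPM on the control diet. Its lowest control library was well above its highest VA-free library and control 2A did not stand apart, with a log2 fold change of -4.00 ± 0.24 (edgeR adjusted p = 0.000226). Timp1 (chromosome X, 20870166 to 20874735), the inducible TIMP, stood at 6.24, 8.36, 9.32 and 7.55 CPM against 31.2, 32.5, 16.2 and 21.9 CPM. The diets did not overlap and the log2 fold change was -1.73 ± 0.27 (edgeR adjusted p = 0.00275). Timp2 (chromosome 11, 118301069 to 118355740), which inhibits MMPs and also bridges MMP14 to pro-MMP2 when the latter is activated, stood at 1362, 1610.2, 1498 and 1576 CPM against 968, 1012, 389.9 and 1121 CPM. All VA-free libraries were higher, the log2 fold change was 0.78 ± 0.17 (edgeR adjusted p = 0.00976), and it was 0.50 without control 2A and 1.09 without control 2B, where the call was lost (edgeR adjusted p = 0.111). Timp3 (chromosome 10, 86300372 to 86349506), the matrix-bound TIMP that also blocks ADAMTS and ADAM enzymes, stood at 562.2, 692, 605 and 632 CPM against 907, 786, 448 and 589 CPM. The diets overlapped and the log2 fold change was -0.13 ± 0.23 (edgeR adjusted p = 0.689), and the sign depended on which control mouse was kept (0.32 without control mouse 1 and -0.48 without control mouse 2). Timp3 shares 1733 exon bases with Syn3 on the opposite strand.

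The makeup of the TIMP pool differed accordingly. Timp2 made up 73.0% to 74.6% of the summed TIMP TPM in VA-free libraries and 41.5% to 62.6% in control libraries, Timp4 0.535% to 0.973% against 9.32% to 22.2%, and Timp1 1.44% to 2.00% against 4.58% to 6.41%. Timp3 held 23.0% to 24.8% against 23.5% to 33.0%. The 2 transcripts of Timp2 did not keep the same shares either, since the shorter one (Timp2-202, 718 bases) held 8.85% to 10.9% of its TPM on the VA-free diet and 22.5% to 33.0% on the control diet. Timp4 and Timp1 fell, as did the summed markers of endothelial, Schwann, tenocyte, pericyte and smooth muscle, myofiber and macrophage cells counted above. The median log2 fold changes of these marker lists ran from -4.84 (tenocyte) to -1.17 (myofiber). Of 8 fibro-adipogenic markers 4 were lower, but their sum was alike on both diets. The part of all these cells in the fall of Timp4 and Timp1 was not tested.

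Among the MMPs, the gelatinase Mmp2 and the transmembrane Mmp14, which are known as partners in the activation of pro-MMP2 at the cell surface, were the most abundant and did not pass. Mmp2 (chromosome 8, 92827291 to 92853420) stood at 532, 411, 606 and 646 CPM against 419, 462, 259 and 433 CPM. VA-free 2A lay among the controls, and the log2 fold change was 0.42 ± 0.22 (edgeR adjusted p = 0.167). Mmp14 (chromosome 14, 54431612 to 54445364) stood at 194, 214, 208 and 212 CPM against 161, 178, 157 and 173 CPM. Every VA-free library was above every control library, by a log2 fold change of 0.32 ± 0.11 that missed the threshold (edgeR adjusted p = 0.0597) and passed it with DESeq2 (adjusted p = 0.0298). Mmp19 (chromosome 10, 128790910 to 128800824), next in mean TPM, was the only MMP gene called higher, at 14.5, 14.2, 13.6 and 15.6 CPM against 8.43, 10.8, 6.14 and 7.92 CPM. Its log2 fold change was 0.81 ± 0.21 (edgeR adjusted p = 0.0195), and the call was lost without any 1 of the VA-free mice, control 1A or control 2B (0.70 to 0.85, edgeR adjusted p of 0.0516 to 0.0713). Mmp19 shares 789 exon bases with Tmem198b on the opposite strand, and reads of an unstranded library cannot be divided between them.

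The MMP genes that were lower on the VA-free diet were all of low level. Mmp28 (chromosome 11, 83440768 to 83463071), epilysin, stood at 0.0427, 0.107, 0.264 and 0.0604 CPM on the VA-free diet and at 4.09, 7.71, 2.58 and 5.05 CPM on the control diet. These were 3 to 12 counts against 124 to 340 counts, with no overlap, and the log2 fold change of -5.54 ± 0.56 (edgeR adjusted p = 0.000575) was the lowest of the members tested. It shares 466 exon bases with 1700020L24Rik on the opposite strand. Mmp23 (chromosome 4, 155650655 to 155653384), a membrane-anchored enzyme, stood at 0.469, 0.340, 0.749 and 0.724 CPM against 4.92, 4.28, 4.76 and 2.80 CPM. The diets did not overlap and the log2 fold change was -2.99 ± 0.42 (edgeR adjusted p = 0.0018). Mmp16 (chromosome 4, 17852893 to 18119145), a transmembrane relative of Mmp14, stood at 0.0853, 0.376, 0.440 and 0.221 CPM against 2.48, 0.748, 3.64 and 2.28 CPM, again without overlap (log2 fold change -3.12 ± 0.65, edgeR adjusted p = 0.00858). Mmp17, a GPI-anchored enzyme, stood at 2.36, 2.04, 2.51 and 3.80 CPM against 6.82, 7.55, 1.06 and 6.83 CPM. Here control 2A was below every VA-free library while the other controls were above, and the log2 fold change was -1.15 ± 0.36 (edgeR adjusted p = 0.0387). The call of Mmp17 was lost without any 1 of the VA-free mice with a fold of like size (-1.36 to -1.01, edgeR adjusted p of 0.0517 to 0.113), and without control mouse 1 (-0.63, edgeR adjusted p = 0.217), VA-free 3A (-1.06, edgeR adjusted p = 0.0729), control 1A (-1.19, edgeR adjusted p = 0.0557) or control 2B (-0.75, edgeR adjusted p = 0.51).

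**Figure D5:**
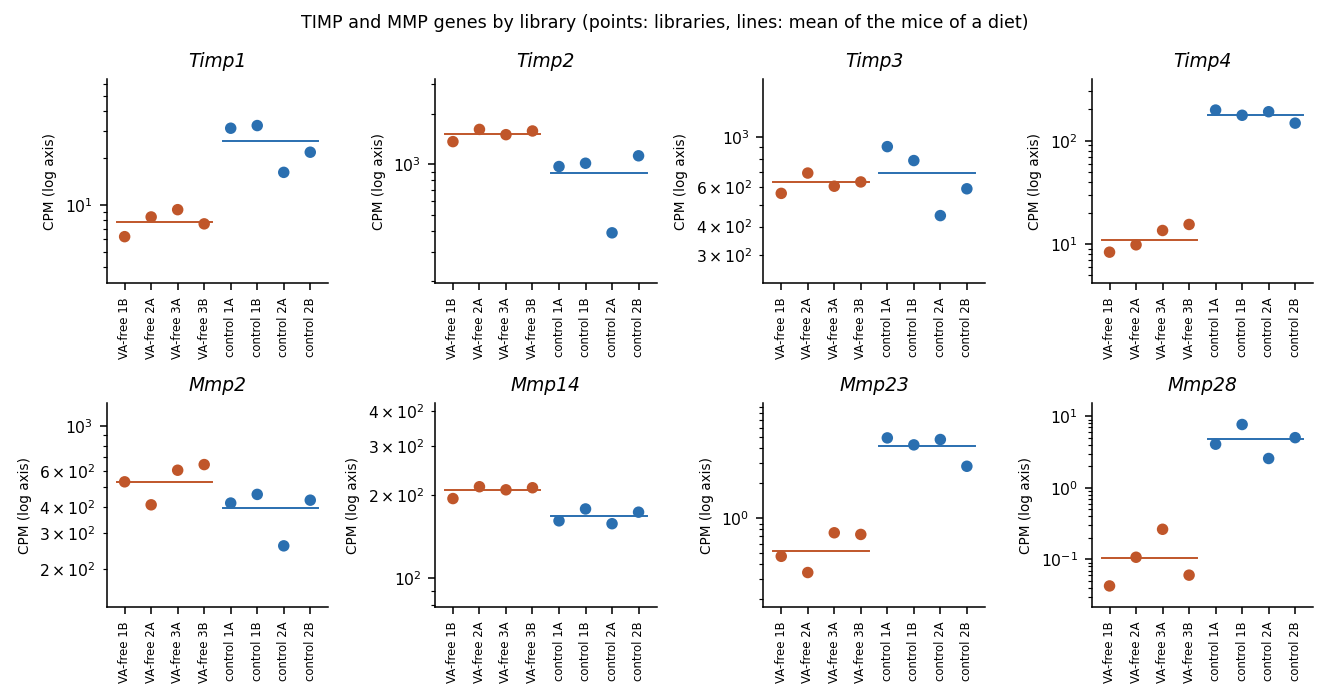
CPM (log axis) of the 4 TIMP genes and 4 MMP genes, with a point per library and a line at the mean of the mice of a diet. Timp4, Timp1, Mmp23 and Mmp28 are lower in all 4 VA-free libraries than in any control library, Timp2 and Mmp14 are higher, and Timp3 and Mmp2 overlap.

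Calls for Mmp12 and Mmp3 rested on few libraries. Mmp12, the macrophage elastase, stood at 0.789, 0.680, 0.661 and 0.745 CPM against 0.694, 0.589, 12.3 and 5.51 CPM. Only the libraries of control mouse 2 were high, control mouse 1 lay among or below the VA-free libraries, and the log2 fold change of -2.62 ± 0.87 (edgeR adjusted p = 0.0494) became 0.16 (edgeR adjusted p = 0.845) without control mouse 2. The call was also lost without any 1 VA-free mouse, VA-free 3A, control 1A, control 2A or control 2B (-3.16 to -2.06, edgeR adjusted p of 0.0509 to 0.123). Its protein-coding transcripts had 436 and 233 counts in control 2A and 2B and at most 1 count in any other library. The macrophage markers were summed at 908 and 671 CPM in these 2 libraries and at 26.7 to 214 CPM in the other 6, and their part in the Mmp12 value was not tested. Mmp3, stromelysin-1, had 22, 0, 12 and 11 counts on the VA-free diet and 265, 33, 111 and 16 counts on the control diet. One technical replicate of each control mouse was high and the other low, and the log2 fold change was -3.72 ± 1.04 (edgeR adjusted p = 0.0264), a call lost without VA-free mouse 1 or 3, control mouse 1, or any of control 1A, 2A and 2B (-4.10 to -2.57, edgeR adjusted p of 0.0521 to 0.136).

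Of the remaining MMP genes tested, Mmp11 (0.09 ± 0.33) and Mmp15 (-0.38 ± 0.23) had mean levels of 14.4 and 11.6 CPM over the 5 mice and were lowest in control 2A, and Mmp9, Mmp21, Mmp24 and Mmp25 had mean levels of 0.184 to 0.698 CPM. None of these 6 passed (edgeR adjusted p of 0.187 to 0.966). The gelatinase Mmp9 had 50, 84, 0 and 0 counts against 37, 0, 0 and 109 counts. The collagenases Mmp8 and Mmp13 and the rodent collagenase genes Mmp1a and Mmp1b, the matrilysin Mmp7, the stromelysin Mmp10, the enamel protease Mmp20, and Mmp27 were not tested. Mmp7, Mmp10 and Mmp1b had 0 counts in all 8 libraries, which allows up to 3 counts per library, and Mmp8 had 45 counts, all of them in control 2A.

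All 8 MMP genes that were not tested lie together. A cluster of 10 Mmp genes on chromosome 9, between 7272514 and 7699585, holds Mmp13, Mmp12, Mmp1b, Mmp3, Mmp1a, Mmp10, Mmp8, Mmp27, Mmp20 and Mmp7, of which Mmp3 and Mmp12 were tested. Retinoids are known to act on several of these genes through AP-1, the Fos and Jun factor that binds TGANTCA, so the promoters were read for these letters on both strands. The RefSeq promoters (GRCm38.p6) held a promoter for 32 of the 46 members. Within 250 bases before the start, the letters occurred in 6.87% of 27025 promoters, in 7 of the 10 cluster genes at the first listed start and in Mmp12 at another start, and in none of the 22 other members with a promoter. The stretches of 100 bases before the start of 3 of them, chosen after their values had been seen, are given 5′ to 3′ on the plus strand with these letters in capitals. The Mmp12 stretch is not that of Mmp12-203, the transcript with most of the Mmp12 TPM in control 2A (60.6%) and 2B (52.4%). Mmp12-203 begins at the first listed start, where the 250 bases do not hold these letters. Mmp12 lies at chr9:7347274-7347373, Mmp3 at chr9:7445722-7445821 and Mmp13 at chr9:7272414-7272513.
Mmp12: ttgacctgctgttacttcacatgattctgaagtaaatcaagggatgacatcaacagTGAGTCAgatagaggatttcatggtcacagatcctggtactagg
Mmp3: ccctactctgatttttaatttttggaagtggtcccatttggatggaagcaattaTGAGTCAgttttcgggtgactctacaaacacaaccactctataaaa
Mmp13: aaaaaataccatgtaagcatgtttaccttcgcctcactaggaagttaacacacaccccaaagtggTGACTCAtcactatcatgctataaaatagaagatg
Fos stood at a mean of 7296 CPM on the VA-free and 9711 CPM on the control diet and Jun at 4195 and 4606 CPM, while Mmp13 had 14 counts at most in a library. The letters AGGTCA of a retinoid receptor site occurred in 3 of 32 member promoters, those of Mmp1a, Mmp1b and Mmp10, beside 13.8% of all promoters. A match of letters is a description and no measure of binding.

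Other genes of pericellular proteolysis were taken from lists. Of 7 ADAMTS-like genes, which encode matrix proteins without a protease domain, 3 were higher and 1 lower (median log2 fold change -0.58). The 3 were Adamtsl4 (log2 fold change 2.07 ± 0.14, edgeR adjusted p = 0.000228), Thsd4 (1.76 ± 0.14, edgeR adjusted p = 0.000325) and Adamtsl1 (1.53 ± 0.16, edgeR adjusted p = 0.000689), of which Adamtsl4 lost its call without control 2B (2.76, edgeR adjusted p = 0.0703). Of 14 activators and inhibitors tested 5 were higher and 4 lower (median 0.37). Lrp1, the receptor that takes up MMP, ADAMTS and TIMP proteins, had a log2 fold change of 1.95 ± 0.14 (edgeR adjusted p = 0.000254), and the convertase Furin 1.27 ± 0.24 (edgeR adjusted p = 0.00609), lost without control 1A (0.92, edgeR adjusted p = 0.097) or control 2B (1.81, edgeR adjusted p = 0.233). Cst3, a cysteine protease inhibitor, fell by 2.24 ± 0.18 on the log2 scale (edgeR adjusted p = 0.000329).

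Of 10 ADAMTS substrates and related proteoglycan or link proteins tested, none was higher and 6 were lower (median -2.84). Dcn, the proteoglycan decorin, fell by 4.46 ± 0.27 on the log2 scale (edgeR adjusted p = 0.000226), Vwf, the von Willebrand factor of endothelium, by 3.46 ± 0.35 (edgeR adjusted p = 0.000565) and Comp, the substrate of Adamts7 and Adamts12, by 3.19 ± 0.44 (edgeR adjusted p = 0.00163). Vcan, the versican cut by hyalectanases, had a log2 fold change of -0.05 (edgeR adjusted p = 0.919). Dcn and Comp are also made by fibroblasts and tenocytes and Vwf by endothelium, and the part of these cells was not tested.

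Of 12 ADAM genes 3 were higher and 3 lower (median 0.31). Adam12, known from fusing myoblasts, had a log2 fold change of 1.41 ± 0.25 (edgeR adjusted p = 0.00453), lost without control 2A (1.01, edgeR adjusted p = 0.0578), and Adam9 one of 0.71 ± 0.12 (edgeR adjusted p = 0.00344). Adam15 fell by 1.55 ± 0.28 (edgeR adjusted p = 0.0051), with -0.92 without control mouse 1 and a lost call without control 2B (-1.21, edgeR adjusted p = 0.249). Of 5 tolloid-type proteases and helpers 1 was higher and 2 were lower (median 0.25), with Bmp1, the procollagen C-proteinase, at 1.63 ± 0.16 (edgeR adjusted p = 0.000529) and its enhancer Pcolce at -1.09 ± 0.18 (edgeR adjusted p = 0.00364, lost without control 2B at -0.87, edgeR adjusted p = 0.134). Of 9 plasminogen system genes none was higher and 4 were lower (median -0.52). They included the receptor Plgrkt (-0.98 ± 0.14, edgeR adjusted p = 0.00178), the inhibitor Serpine2 (-0.85 ± 0.14, edgeR adjusted p = 0.00355, and -0.54 without control 2A) and the activator Plau (-0.78 ± 0.19, edgeR adjusted p = 0.0175), whose call was lost without any 1 VA-free mouse with the fold about the same (-0.78, edgeR adjusted p of 0.0561 to 0.0608), and without control mouse 1 (-0.53, edgeR adjusted p = 0.0589) or control 2B (-0.47, edgeR adjusted p = 0.457). The 41.4% of all genes past the threshold applies to these lists as well.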

How the data were processed

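RNA was measured in nuclear GFP+ MuSCs of 3 VA-free and 2 control mice (8 libraries). The libraries were made from full-length cDNA without strand information. The authors estimated counts per transcript with kallisto 0.46.2 on the Ensembl 96 transcripts of GRCm38 and deposited these estimated counts and TPM per library, without normalization between libraries. TPM keeps no depth.

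Estimated counts were added per gene and over the libraries of a mouse and rounded. Transcripts that matched no gene held 0.647% to 0.756% of a library and were omitted. Diet was tested on 5 mice in R 4.3.3 with the quasi-likelihood test of edgeR 4.0.16, after TMM and filterByExpr, with Benjamini-Hochberg adjusted p-values and a threshold of 0.05. A standard error is the log2 fold change divided by the square root of F. The steps were tested on simulated data. DESeq2 1.42.0, limma 3.58.1, other normalizations and filters, length corrections, TPM with pseudocounts of 1 and 0.1, a replicate block, protein-coding transcripts and omission of each mouse or library were alternatives.

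Members and lists were chosen with earlier results of these data known. Named are members past the threshold with a mean of at least 1 CPM, all Timp genes, the 3 Mmp and 3 Adamts genes highest in TPM, members past the threshold under 1 CPM with counts, the rest by range, and up to 3 genes of a related list that passed with at least 10 CPM. Vcan, Fos and Jun were added after their values had been seen. Genes sharing exons on opposite strands cannot be told apart. Counting intervals cover counting error only.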

Additional observations from a re-analysis of the deposited data

Results flagged for a closer look

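By Dixon's criterion, chance flags about 1 in 20 groups of 4 independent values. Libraries A and B of a mouse are not independent, so that rate does not strictly hold here. Of 56 groups of 4 libraries examined, each a member gene in 1 diet, 1 held a library far from the others by this criterion. It was Mmp17 in control 2A, at 1.06 CPM, whereas its nearest neighbour among the control libraries stood at 6.82 CPM (a gap of 0.888 of the range of the group).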

How the results depend on the processing

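Across 26 alternatives 7 of the 19 called members kept their call and direction everywhere, namely Adamts8, Adamts12, Mmp16, Mmp23, Mmp28, Timp1 and Timp4, and 2 called members changed sign in an alternative, namely Adamts10 on protein-coding transcripts (-0.53) and Mmp12 without control mouse 2. The number of members higher, 10, was 5 with 1 library per mouse and 4 to 12 when a mouse or library was left out. The number lower, 9, was 5 to 10 when a mouse or library was left out. With 1 library per mouse, control 2A is the only library of control mouse 2. The members' median, 0.114, was 0.383 with 1 library per mouse and -0.35 with the length trend removed. That median was 0.588 with TPM and a pseudocount of 0.1 and 0.0211 to 0.31 when a mouse or library was left out. TPM shifted all genes by a median of 0.192 (pseudocount 1) and 0.354 (pseudocount 0.1), and the members' medians on that scale include it. Mouse numbers are shared between the diets, and deviations of same-numbered mice from their diet mean had correlations of -0.0654 and 0.0103. With 2 control mice the control deviations mirror each other, so both values rest on 1 contrast and cannot show whether mice were paired. With the replicate block 9 members were higher, 8 lower and the median was 0.103. The alternatives were followed for 31 of the 36 members tested, leaving out Adamts19, Mmp9, Mmp21, Mmp24 and Mmp25, which were under 1 CPM and not past the threshold. Among those followed, signs that turned for members not past the threshold were those of Adamts1 (-0.007 with RLE size factors and DESeq2, -0.0172 with upper-quartile factors, -0.0169 without a filter, -0.53 with the length trend removed, -0.42 to 0.59 with a mouse or library left out), Adamts2 (-0.0569, length trend removed), Adamts5 (-0.34, length trend removed), Adamts6 (-0.53, length trend removed, and -0.16 to 0.31 with one left out), Adamts9 (0.45 on protein-coding transcripts, which were added after seeing the data, and -0.47 to 0.16), Mmp11 (-0.40 to 0.81), Mmp15 (0.39 with 1 library per mouse, 0.0365 and 0.0427 with TPM at pseudocounts of 1 and 0.1, -0.82 to 0.25) and Timp3 (0.28 and 0.29 with TPM, -0.48 to 0.32). Both TPM values of Mmp15 lie below the shift of all genes, so relative to it Mmp15 stayed negative, and Timp3 lies above that shift at a pseudocount of 1 and below it at 0.1. Mmp12 ranged from -3.51 to 0.16 with one left out. The cause of the other changes was not tested. There were 2 control mice, 1 of them with a library that stands apart, and members under 1 CPM rest on few counts.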
